A study of Mus musculus with 5 samples.

Results

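Genomic imprinting leaves a gene active on the copy from 1 parent and silent on the other, and many imprinted genes set the pace of fetal growth. Described here are 10 of them that have been tied to growth control and to stem cells: Igf2, H19, Dlk1, Meg3, Grb10, Igf2r, Peg3, Plagl1, Ndn and Mest. They were chosen by name, as every probe set that the array annotation assigns to 1 of these genes alone. Of 18193 genes with a probe set of their own, 9 of the 10 were found, with 37 probe sets. H19 had none, because its single probe set is annotated to the microRNA gene Mir675 as well.

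The cells were long-term haematopoietic stem cells (LT-HSCs) of C57BL/6 mice aged 4 weeks, sorted from the lineage-negative, Sca-1-positive and Kit-positive fraction as CD150-positive cells without CD48, Flt3 or IL7Ra. All animals carried Mx1-Cre, a recombinase under an interferon-inducible promoter that is not limited to stem cells, and all received 2 injections of 250 µg of the double-stranded RNA analogue pIpC, with sorting on day 9 after the first. The 2 control arrays came from Zbtb7a Flox/+ Mx1-Cre+ mice, which have 1 floxed allele of the gene for the transcription factor LRF, and the 3 knockout arrays from Zbtb7a Flox/Flox Mx1-Cre+ mice. The controls thus lacked 1 allele themselves after recombination, and the description of knockout replicate 3 named 2 animals. Nothing more is stated on how far the arrays of a group are separate, so p-values measure the spread between these arrays.

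In background terms, the 10 genes form a few functional pairs and circuits. Igf2 encodes a growth factor made from the paternal copy, and the neighbouring H19 makes a maternally expressed long noncoding RNA that shares enhancers with Igf2. Igf2r encodes the receptor that carries IGF2 to lysosomes, and Grb10 encodes an adaptor that dampens signalling of the insulin and IGF1 receptors. Dlk1, a membrane protein related to Notch ligands, and the noncoding RNA Meg3 lie side by side in another imprinted domain with opposite parental expression. Plagl1, Peg3, Ndn and Mest are expressed from the paternal copy. Plagl1 and Peg3 encode zinc finger proteins, Ndn encodes the growth suppressor necdin, and Mest encodes a protein of the alpha/beta hydrolase family. In adult blood, the H19 and Igf2 locus and the Meg3 locus have been linked to the quiescence of stem cells, and Ndn to restraint of their division.

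Median log2 intensity per array was 6.38 to 6.40. Knockout replicate 2 stood apart: across 45037 probe sets (not independent of each other) it correlated at 0.945 to 0.97 with every other array, against 0.977 to 0.99 among those 4. Of 18 LT-HSC markers, 16 had a probe set of their own. All 16 passed the filter on dim probe sets (a mean log2 intensity of at least 5.77), as did 12813 of all 18193 genes. In knockout replicate 2, 15 of these 16 had their lowest value, and 8 of 10 markers of other blood cells had their highest. Of all 12813 genes tested, 40.5% had their lowest value in that array and 3335 their highest. The targeted gene Zbtb7a read 8.22 and 8.36 in controls 1 and 2 and 8.72, 8.33 and 9.06 in knockouts 1, 2 and 3 on its brightest probe set, so the groups overlapped. That difference was 0.41 (limma SE 0.26; exact two-sided permutation p = 0.3, smallest possible 0.1), and the other probe sets differed by -0.36 and -0.05. Where these probes lie relative to the deleted part was not analysed here, so they check nothing about the deletion.

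Knockout was set against control to ask how loss of LRF alters the transcripts of LT-HSCs. Of the 37 probe sets of the imprinted growth genes, 22 passed the filter, and they covered 8 genes. None of the 22 passed the limma test (adjusted p under 0.05), nor did any of the 27022 probe sets tested (0%). At an unadjusted limma p under 0.05 there were 0 of the 22 and 306 of all probe sets (1.13%). On the brightest probe set of each gene, 3 of the 8 genes (Igf2, Dlk1 and Plagl1) had a higher mean in knockouts and 5 (Meg3, Grb10, Igf2r, Peg3 and Ndn) a lower one, with a median log2 difference of -0.19 against -0.03 over 12813 genes. In 0 of the 8 were the groups apart, where this was so for 7.18% of all genes (2.68% with knockouts higher). Leaving out single arrays gave 4 such genes without control 1 (45.3% of all genes), 3 without control 2 (30.6%), 0 without knockout 1 (11.7%), 2 without knockout 2 (27.4%) and 1 without knockout 3 (17.1%). Without knockout replicate 2 the median was 0.16, with 5 of 8 differences above 0, against a median of 0.0032 over all genes.

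**Figure D1:**
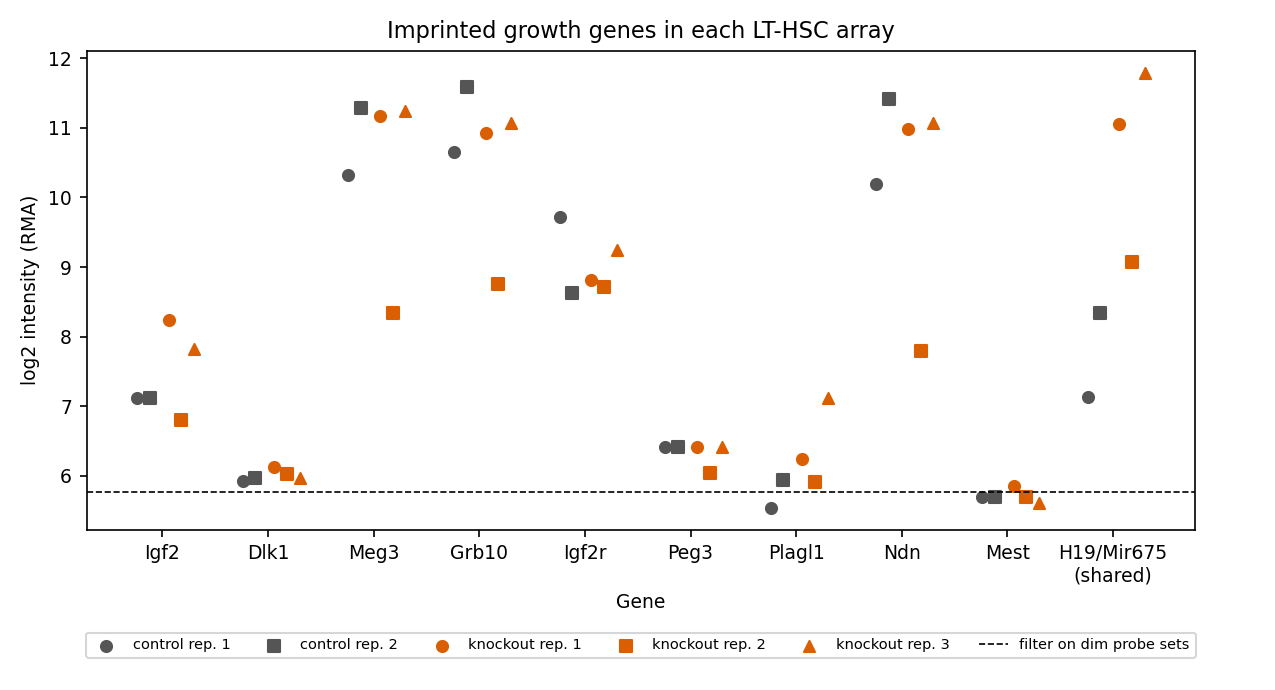
Log2 intensity (vertical axis) of the brightest probe set of each gene in each of the 5 arrays, with controls in grey and knockouts in orange; the last column is the probe set shared by H19 and Mir675, and the dashed line is the filter at 5.77. Meg3, Grb10 and Ndn have their lowest point in knockout replicate 2, while in the shared column all 3 knockouts lie above both controls; heights are not comparable between genes.

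Of the members with a probe set of their own, Meg3, Grb10 and Ndn varied most among the arrays, and they varied together. Meg3 read 10.32 and 11.29 in controls 1 and 2 and 11.17, 8.35 and 11.25 in knockouts 1, 2 and 3. Ndn read 10.20 and 11.42 in the controls and 10.98, 7.79 and 11.07 in the knockouts. Grb10 read 10.66 and 11.59 in the controls and 10.92, 8.76 and 11.07 in the knockouts. All 3 genes were highest in control 2 and lowest in knockout 2, and the other knockouts lay between the controls, so the groups overlapped.

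The promoters of these genes are shown because the 3 transcripts followed the same course. The windows are the 250 bases before the first listed transcript start, from the RefSeq annotation of GRCm38.p6, 5′ to 3′ on the strand of the gene. Meg3 is at chr12:109540746-109540995 (plus strand), Grb10 at chr11:12037421-12037670 (minus strand) and Ndn at chr7:62348027-62348276 (plus strand). Capitals mark exact matches, on either strand, to 6 short motifs. The cyclic AMP response element was searched as TGACGTCA and the NRF1 site as GCATGCGC. The CCAAT box was searched by the letters in its name. The GC box was searched as GGGCGG, without flanking bases. The E-box was searched in its CACGTG form, and the TATA box as the letters TATAAA alone.
Meg3: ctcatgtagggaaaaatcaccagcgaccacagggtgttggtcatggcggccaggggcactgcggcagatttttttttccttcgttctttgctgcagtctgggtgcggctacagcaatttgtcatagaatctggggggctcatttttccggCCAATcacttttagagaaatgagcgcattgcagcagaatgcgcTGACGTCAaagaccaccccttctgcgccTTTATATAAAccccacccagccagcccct
Grb10: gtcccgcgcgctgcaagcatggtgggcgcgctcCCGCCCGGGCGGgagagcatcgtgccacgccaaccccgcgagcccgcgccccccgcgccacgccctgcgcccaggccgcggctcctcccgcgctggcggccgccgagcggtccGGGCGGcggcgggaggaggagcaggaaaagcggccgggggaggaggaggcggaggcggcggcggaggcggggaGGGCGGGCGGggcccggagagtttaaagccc
Ndn: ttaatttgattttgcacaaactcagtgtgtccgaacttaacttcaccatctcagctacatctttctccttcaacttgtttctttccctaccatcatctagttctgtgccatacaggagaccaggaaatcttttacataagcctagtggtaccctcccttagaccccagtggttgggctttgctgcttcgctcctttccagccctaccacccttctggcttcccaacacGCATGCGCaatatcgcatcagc
The Meg3 window held the cyclic AMP response element, a CCAAT box and a pair of overlapping TATA boxes on opposite strands. The Grb10 window held 5 GC boxes, a pair of them overlapping, and the Ndn window held 1 NRF1 site. Among 32851 such windows of 27025 genes, the cyclic AMP response element was found in 1.55%, the CCAAT box in 33.8%, the GC box in 32.7%, the E-box in 6.02%, the NRF1 site in 2.26% and the TATA box in 12.4%. No motif searched was common to all 3 windows, and the Peg3 window, not shown, held the cyclic AMP response element too. They also differed in CpG content, with 10 CpG sites in the Meg3 window, 40 in Grb10 and 5 in Ndn, against a median of 6 over all windows. A match is a description of the letters only, and neither binding nor methylation was measured.

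Before any difference between groups, the gap between single arrays was large. Over the 9 probe sets of these 3 genes that spanned at least 2 log2 units (3 of Meg3, 1 of Grb10 and 5 of Ndn), knockout 2 minus the mean of the other arrays was -3.64 to -1.76. Control 2 lay 0.93 to 1.40 above control 1 on the same probe sets. All 9 shared 1 order of the arrays, from control 2 through knockout 3, knockout 1 and control 1 down to knockout 2, which 212 of the 1847 tested probe sets with such a span also had (11.5%). Probe sets of 1 gene, above all the Ndn sets whose names contain _x_at, can share probes and are not independent.

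The differences between knockout and control were correspondingly uncertain. For Meg3 the control mean was 10.81 ± 0.68 (SD, n = 2) and the knockout mean 10.26 ± 1.65 (SD, n = 3), which differ by -0.55 (SE 1.03) in log2 units. Ndn averaged 10.81 ± 0.86 and 9.94 ± 1.86, a difference of -0.86 (SE 1.18). Grb10 averaged 11.13 ± 0.66 and 10.25 ± 1.29, a difference of -0.88 (SE 0.83). None of the 3 passed the limma test (adjusted p = 1 each). Without knockout 2 the differences were 0.41 (SE 0.37) for Meg3, 0.21 (SE 0.46) for Ndn and -0.13 (SE 0.36) for Grb10 (-0.41 without control 2 and -1.34 without control 1), so that Meg3 and Ndn changed sign.

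**Figure D2:**
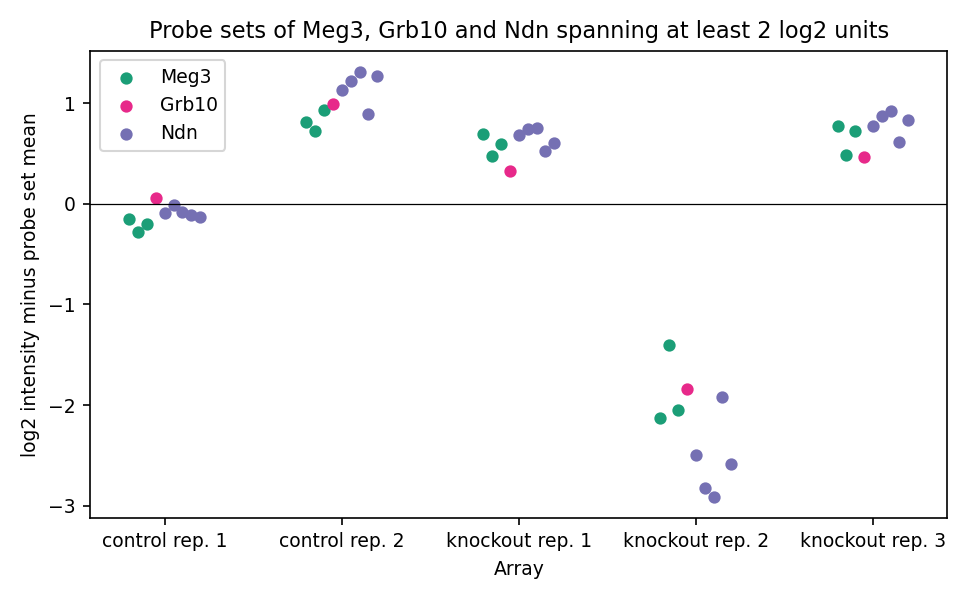
Log2 intensity minus the mean of each probe set (vertical axis) for the 9 probe sets of Meg3, Grb10 and Ndn that span at least 2 log2 units, in each of the 5 arrays; every point is 1 probe set. All 9 are highest in control 2 and lowest in knockout 2, where their distance from the mean of the other arrays is -3.64 to -1.76.

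LT-HSC markers moved along with these 3 genes. The median of the 16 markers, each relative to its own mean, was 0.08 and 0.78 in controls 1 and 2 and 0.28, -1.70 and 0.63 in knockouts 1, 2 and 3. Their summed linear intensity was 21758 to 37231 in controls and 10768 to 27377 in knockouts, with the lowest value in knockout 2. The 10 markers of other blood cells had a summed intensity of 29215 in knockout 2 and 11213 to 14391 in the other arrays. Of that sum in knockout 2, 22504 came from Ptprc (CD45) and Tfrc (the transferrin receptor), which were above 11 in every array and are not limited to mature cells. The other 8 markers summed to 6711 in knockout 2 and 1345 to 2029 in the other arrays, a split chosen after their values were seen. In such bulk samples, fewer cells of a type and less RNA per cell cannot be told apart, and the part of either in these levels was not tested.

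Not all probe sets of these genes carried that pattern. Meg3 had 11 probe sets. Besides the 3 wide ones, 1 more bright set was also highest in control 2 and lowest in knockout 2. It read 8.13 and 8.98 in controls and 8.80, 7.29 and 8.71 in knockouts. Another 5 that passed the filter stayed between 6.45 and 6.98 in every array, and 2 were too dim to be tested. One of these dim sets still had its lowest value in knockout 2, at 5.03 and 5.26 in controls and 5.26, 4.84 and 5.78 in knockouts. Among the 5 was the only tested member probe set whose groups did not overlap, at 6.60 and 6.52 in controls against 6.73, 6.97 and 6.73 in knockouts (log2 difference 0.24, SE 0.15, limma adjusted p = 1). That is 1 of 22, against 7.95% of all tested probe sets. Grb10 had a second tested probe set between 5.91 and 6.43, again lowest in knockout 2, and another below the filter. Ndn had 3 more probe sets, all at 4.44 or lower and left out by the filter. Which part of the transcript each probe set reads was not analysed here.

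By the root mean square difference of the 5 values, each gene first set to its own mean, the nearest of 12805 other genes were in part well-known stem cell genes. Grb10 was closest to Hoxa9, a homeobox factor of blood progenitors (0.050), to Abhd14a (0.059) and to Osbpl1a (0.067). Hoxa9 read 11.54 and 12.55 in controls and 11.94, 9.65 and 12.01 in knockouts. Ndn was closest to Meis1, a Hox cofactor (0.17), Afap1l1 (0.17) and Bex1 (0.19), and Meg3 to Zfp783 (0.11), Shank3 (0.11) and Procr (0.12), the endothelial protein C receptor used to mark LT-HSCs. Among the 3 members themselves the distances were 0.22 between Meg3 and Ndn, 0.28 between Meg3 and Grb10 and 0.37 between Grb10 and Ndn.

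Igf2 and H19 share a domain on chromosome 7, and the probe set that carries H19 differed more between the groups than any member probe set. That probe set is annotated to both H19 and Mir675, whose hairpin lies inside the H19 gene, so it falls outside the rule and is given under both symbols. The arms of miR-675 are shown because their gene is the reason that H19 has no value of its own. They are given 5′ to 3′ from RefSeq on GRCm38.p6, at chr7:142577112-142577133 (5p) and chr7:142577078-142577099 (3p) on the minus strand, with the seed (bases 2 to 8) in capitals.
miR-675-5p: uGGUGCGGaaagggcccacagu
miR-675-3p: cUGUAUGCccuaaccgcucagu
The shared probe set read 7.13 and 8.35 in controls 1 and 2 and 11.06, 9.07 and 11.79 in knockouts 1, 2 and 3. Every knockout lay above both controls, with knockout 2 the nearest to them. The means were 7.74 ± 0.86 (SD, n = 2) and 10.64 ± 1.41 (SD, n = 3), a log2 difference of 2.90 (SE 0.92; limma unadjusted p = 0.0277, adjusted p = 1). Groups lay apart with knockouts higher for 3.61% of all tested probe sets, and with knockouts lower for 4.34%. Leaving out single arrays gave 2.30 (without control 1) to 3.68 (without knockout 2). The array measures the long transcript or its amplified fragments, and mature miR-675 was not measured.

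Igf2 was also higher in knockouts 1 and 3, with smaller steps, but not in knockout 2. It read 7.12 in each control and 8.24, 6.81 and 7.83 in knockouts 1, 2 and 3 on its brighter probe set. Knockouts 1 and 3 were above both controls and knockout 2 was below them, so the groups overlapped. The difference was 0.51 (SE 0.46, limma adjusted p = 1), and 0.92 (SE 0.19, limma adjusted p = 0.953) without knockout 2. Without knockout 1 it was 0.20. The second Igf2 probe set stayed between 4.16 and 4.26 in all arrays and was too dim to be tested.

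Of the genes of mesenchymal cells, which express H19 and Igf2 during development, some varied among the same arrays and others did not. Pdgfrb, a growth factor receptor, read 6.15 and 8.46 in controls and 9.26, 6.65 and 9.79 in knockouts, and the matrix protease gene Mmp2 7.09 and 8.47 against 8.48, 6.78 and 9.44. Of 20 stromal markers, 17 had a probe set of their own and 11 passed the filter, while Col1a1, Col3a1, Pdgfra and Lum were among those left out as dim. Of the 11, 7 were higher and 4 lower in knockouts. Kitl, the ligand of the Kit receptor, ran the other way, at 7.72 and 7.63 in controls and 6.12, 6.01 and 7.07 in knockouts, with the groups apart (difference -1.28, SE 0.37; limma unadjusted p = 0.0206, adjusted p = 1). Kitl was the 1 of the 11 with knockouts apart and lower, against 4.5% of all genes. In 1 other the knockouts lay apart and higher, against 2.68%. The chemokine gene Cxcl12 differed by -0.25, and Acta2, smooth muscle actin, was highest in knockout 2 (8.98). The collagen genes Col1a2, Col6a1 and Col6a2 differed by -0.07, 0.03 and -0.01. The summed linear intensity of the 11 was 1702 to 2160 in controls and 1917 to 2963 in knockouts, and their part in the H19 and Igf2 values was not tested.

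Igf2r, the receptor that removes IGF2, was highest in a control. It read 9.71 and 8.63 in controls 1 and 2 and 8.81, 8.71 and 9.24 in knockouts 1, 2 and 3. The other probe set read 8.60 and 8.18 in controls and 8.10, 8.36 and 8.36 in knockouts. Control 1 had the highest value on both, and the groups overlapped. The differences were -0.25 (SE 0.39) and -0.11 (SE 0.20), neither past the limma test (adjusted p = 1 each), and without control 1 that of the brighter was 0.30. Macrophage markers were also highest in control 1, where the median of 14 markers relative to their own means was 1.17, against 0.33 in control 2 and -0.97, -0.93 and 0.10 in knockouts 1, 2 and 3. The courses differed in control 2, where the brighter Igf2r probe set was lowest and the markers were next highest. The summed linear intensity of the markers was 20355 to 39078 in controls and 7502 to 19354 in knockouts. Their part in the Igf2r level was not tested.

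Airn, the noncoding RNA read antisense from within Igf2r on the paternal copy, was counted among the other imprinted genes. It read 6.97 and 7.26 in controls and 8.22, 6.73 and 7.56 in knockouts, a difference of 0.39 (SE 0.47, limma adjusted p = 1), and 0.77 (SE 0.29) without knockout 2. As with Igf2, knockouts 1 and 3 were the highest and knockout 2 the lowest. A probe set annotated to both Airn and Igf2r stayed between 5.00 and 5.49 and was not tested.

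Plagl1, a zinc finger factor that activates other imprinted genes in embryonic tissue, had the smallest unadjusted limma p of the 22 probe sets. It read 5.54 and 5.94 in controls 1 and 2 and 6.25, 5.91 and 7.12 in knockouts 1, 2 and 3. Knockout 3 was the highest and control 1 the lowest, and knockout 2 fell just below control 2. The difference was 0.69 (SE 0.41, adjusted p = 1), and 0.34 without knockout 3. Control 1 lay below the filter level, and the other 2 Plagl1 probe sets were dim throughout, with differences of 0.07 and 0.03, so this value rests on 1 probe set near the filter.

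Dlk1, Peg3 and Mest were dim and nearly flat. Dlk1, whose product circulates and restrains fat cell formation, read 5.93 and 5.97 in controls and 6.13, 6.02 and 5.97 in knockouts, a difference of 0.09 (SE 0.14). Peg3 read 6.42 in 4 arrays and 6.04 in knockout 2, a difference of -0.13 (SE 0.18). Mest read 5.70 in each control and 5.85, 5.70 and 5.60 in knockouts, and did not pass the filter. A further Peg3 probe set just below the filter moved more, at 5.51 and 5.93 in controls and 5.11, 4.47 and 6.43 in knockouts. Of the 37 member probe sets, 11 had the same value within 0.001 on 3 or more arrays, which none of the widely varying ones did. Such repeated values stand in the deposited table itself, and differences near 0 cannot be read from them as absence of change.

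**Figure D3:**
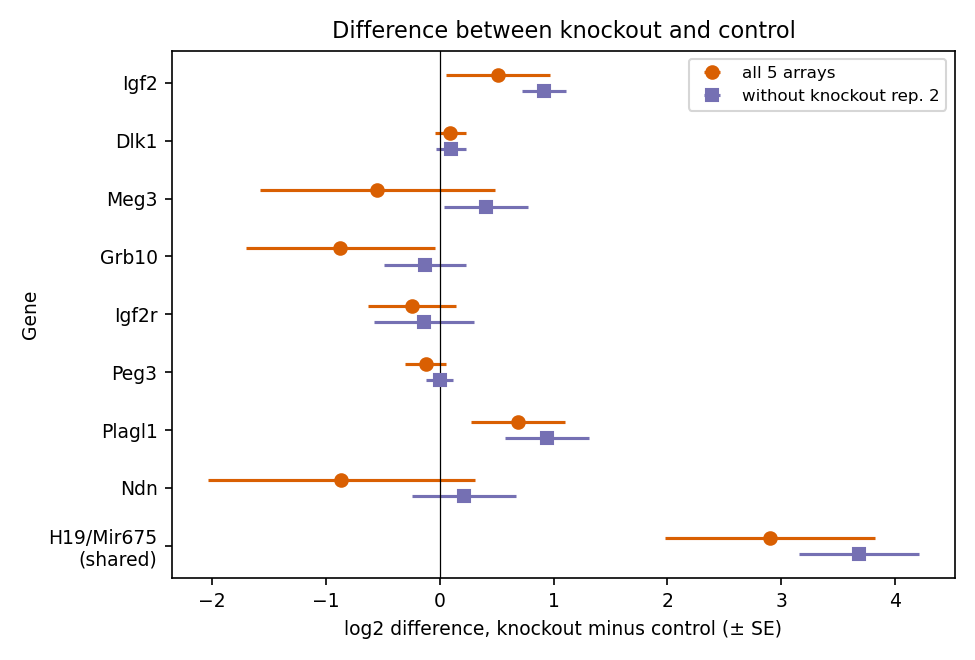
Log2 difference, knockout minus control (horizontal axis, bars show the limma SE), for the 8 tested genes and the probe set shared by H19 and Mir675, with all 5 arrays (circles) and without knockout replicate 2 (squares). Meg3 and Ndn cross 0 when that array is left out, Igf2 goes from 0.51 to 0.92 and the shared probe set from 2.90 to 3.68.

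Other imprinted genes gave a spread of differences in both directions. Of 65 listed, 54 had a probe set of their own, 34 passed the filter and 0 passed the limma test, with 1 at an unadjusted p under 0.05. Of the 34, 10 were higher and 24 lower in knockouts, with a median of -0.10. Without knockout 2 the balance turned, with 21 of the 34 higher and a median of 0.04. The groups did not overlap for Sfmbt2, a Polycomb-related gene of the placenta. That is 1 of 34, against 7.18% of all genes. Sfmbt2 read 5.91 and 6.19 in controls and 7.20, 7.56 and 6.41 in knockouts, a difference of 1.01 (SE 0.38; limma unadjusted p = 0.0497). Without knockout 2, where it was highest, its difference was 0.75 (SE 0.33). Cdkn1c, the cell cycle inhibitor p57 of quiescent stem cells, read 8.05 and 9.19 in controls and 8.05, 6.14 and 8.05 in knockouts, a difference of -1.21 (SE 0.75; -0.57 without knockout 2 and -0.64 without control 2). Its array order resembled that of Meg3, Grb10 and Ndn, with control 2 highest and knockout 2 lowest. Commd1 differed by -0.30 and Jade1 by -0.33, and the brightest members Gnas and Nap1l4 by -0.10 and -0.20. Without knockout 2 these were -0.10, -0.22, -0.012 and -0.013, and without control 2 -0.20, -0.14, -0.022 and -0.14, in the same order. Knockout 2 held the lowest value for 21 of the 34 (61.8%), for 5 of the 8 imprinted growth genes (62.5%) and for 40.5% of all genes tested.

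**Figure D4:**
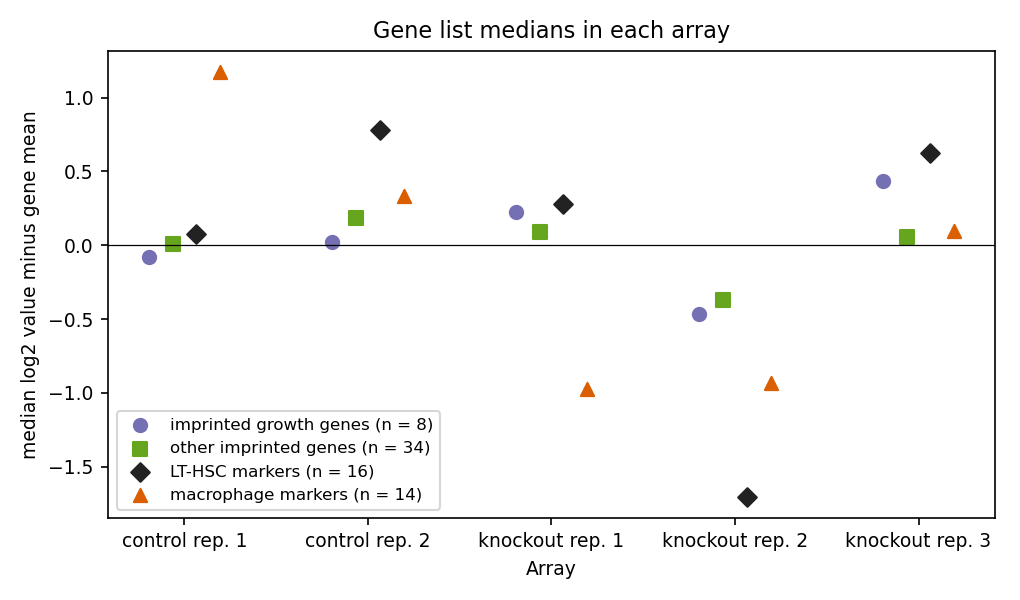
Median over each list of the log2 value minus the gene's own mean (vertical axis) in each of the 5 arrays, for 8 imprinted growth genes, 34 other imprinted genes, 16 LT-HSC markers and 14 macrophage markers. In knockout replicate 2 the LT-HSC markers lie at -1.70, the imprinted growth genes at -0.46 and the other imprinted genes at -0.37, while macrophage markers peak at 1.17 in control 1.

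The IGF and insulin axis, through which IGF2 acts and which Grb10 restrains, had 26 of 36 genes tested and 0 past the limma test. Of the 26, 8 were higher and 18 lower in knockouts (median -0.11), and the groups did not overlap for 3, against 7.18% of all genes. Igf1, the related growth factor, was the 1 gene with an unadjusted p under 0.05. It read 10.11 and 9.26 in controls and 7.84, 7.27 and 8.70 in knockouts, a difference of -1.75 (SE 0.51; limma unadjusted p = 0.0212, adjusted p = 1). All knockouts were below both controls, and the array order, highest in control 1, was close to that of the macrophage markers, a link that was not tested. The other 2 were Irs2, an adaptor of the insulin receptor (0.58, SE 0.27; 0.35 without knockout 2, where it was highest), which was higher in all knockouts, and Pik3r1, a regulatory subunit of PI3 kinase (-0.33, SE 0.18), which was lower. Akt1 differed by -0.41 (-0.25 without control 2), and the brightest listed genes Igfbp4 and Pdk1 by 0.05 and -0.23. Pdk1 is counted in the 26, but this symbol names pyruvate dehydrogenase kinase 1, a metabolic enzyme, and not the PDK1 of insulin signalling. The receptor genes, named here for their role after their values were seen, overlapped between groups and differed by less than 0.2 log2 units, Igf1r by -0.19 (SE 0.16) and Insr by -0.12 (SE 0.22).

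Factors that set or keep imprints were measured for 16 of 20 genes, with 7 higher and 9 lower in knockouts (median -0.07; 0.13 without knockout 2). None passed the limma test, and 0 had an unadjusted p under 0.05. Dnmt1, which copies DNA methylation at replication, read 13.05 and 12.96 in controls and 12.62, 12.14 and 12.87 in knockouts (difference -0.47, SE 0.26; -0.26 without knockout 2). Ctcf, the insulator protein that separates Igf2 from its enhancers on the maternal copy, read 11.53 and 11.39 in controls and 11.29, 11.18 and 11.14 in knockouts (difference -0.25, SE 0.14). For these 2 of 16, all knockouts were below both controls, against 4.5% of all genes with knockouts lower. Zfp445, a zinc finger protein that keeps imprints, differed by -0.18, its corepressor Trim28 by -0.25 and Arid4a by 0.27. Single arrays moved these: Zfp445 was -0.07 without control 2 and -0.08 without knockout 2, and -0.29 without control 1. Arid4a was 0.06 without control 1, 0.13 without knockout 2 and 0.47 without control 2.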

How the data were processed

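RNA of sorted LT-HSCs from 2 control and 3 knockout samples was hybridised to Affymetrix mouse arrays after 2 rounds of in vitro transcription, per the labels' protocols, a method that shortens transcripts towards their 3′ end. The authors deposited RMA values, that is 1 log2 intensity for each probe set and array. The submitters' processing notes name RMA and Expression Console, whose versions the sources used here do not give. RMA forces all arrays to 1 distribution, so a shift shared by most transcripts cannot be seen.

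From 45101 rows, 64 control probe sets were removed, and the 40% of the remaining 45037 with the lowest mean (below 5.77) were not tested, which left 27022. The platform annotation gave 34945 probe sets 1 symbol, 932 several and 9160 none; a gene was represented by its probe set of highest mean, and 12813 of 18193 genes passed the filter. Limma 3.58.1 under R 4.3.3 (lmFit, eBayes, two-sided, Benjamini-Hochberg over all tested probe sets, threshold 0.05) was tested on simulated data first. The number of arrays limits the precision. Figures were drawn with matplotlib 3.10.9.

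The members and lists were chosen with earlier results of these data known. The genes named are all members, Zbtb7a, from each list the 4 with the smallest p and the 2 brightest, and the 3 genes nearest in pattern to each member that spans at least 2 log2 units. Of the marker lists, only genes that a result touches are given by value; these, Airn, Igf1r and Insr were chosen after their values were seen. Endothelial markers (7 of 10 tested) had a median difference of -0.26 (0.04 without knockout 2) and proliferation genes (16 of 18 tested) of -0.21 (-0.13 without it). Alternatives were testing all probe sets, leaving out the lowest 60%, cyclic loess, median centring, a trended robust prior, array weights, a replicate block, averaging the probe sets of a gene, and leaving out each array.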

Additional observations from a re-analysis of the deposited data

Results flagged for a closer look

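The probe set annotated to both H19 and Mir675 entered none of the member comparisons, because it is not assigned to H19 alone. It passed the filter and was tested along with all other probe sets on the same arrays. It was singled out because no member comparison used it and all 3 knockout arrays were above both controls, with a log2 difference of 2.90. Its values were thus part of the choice. Knockouts lay apart and higher for 3.61% of all tested probe sets. The limma adjusted p was 1, and leaving out any 1 array gave 2.30 to 3.68. Of 12805 genes, those nearest to it over the 5 arrays were Fam169a, Epb41l5 and Zfp105, at root mean square differences of 0.66, 0.68 and 0.72, and these were named after their values were seen.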

How the results depend on the processing

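No probe set passed the threshold under any alternative, and counts at an unadjusted p under 0.05 ran from 94 of 11842 genes (averaged probe sets) to 1160 of 27022 probe sets (array weights). The median difference over the members was -0.30 to 0.16 over the fits that each lack 1 array, 0.13 with array weights and -0.55 with the filter on the lowest 60%. Members whose groups did not overlap numbered 0 to 4 over those fits: Igf2r, Meg3, Grb10 and Ndn without control 1, Dlk1, Plagl1 and Igf2r without control 2, Igf2 and Plagl1 without knockout 2, and Dlk1 without knockout 3.

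Zbtb7a was -0.0003 with its probe sets averaged and 0.23 to 0.60 without single arrays. Differences that changed sign with array weights were Meg3 (0.31), Ndn (0.10), Gnas (0.0096), Igfbp4 (-0.012), Pdk1 (0.21) and Trim28 (0.075). With averaged probe sets Gnas was 0.017 and Igfbp4 -0.049. Ranges that crossed or reached 0 without single arrays were Meg3 -1.05 to 0.41, Ndn -1.47 to 0.21, Igf2r -0.79 to 0.30, Peg3 -0.19 to 0, Igfbp4 -0.28 to 0.38, Pdk1 -0.56 to 0.32 and Trim28 -0.45 to 0.0037. The array weights were 0.787 for each control and 7.67, 0.204 and 1.03 for knockouts 1, 2 and 3. That fit thus leaned on knockout 1 and gave knockout 2 little part. Meg3, Ndn, Pdk1 and Trim28 were also above 0 without knockout 2, while Gnas and Igfbp4 kept their sign there. The averaged probe sets of Zbtb7a differed in sign, at 0.41, -0.36 and -0.05, so their mean lay near 0. For Gnas and Igfbp4 with averaged probe sets the cause was not tested.

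The replicate block gave a median of -0.30 over the members, the same as without knockout 3, since only knockouts have a replicate 3. Deviations from the group means of same-numbered arrays correlated at -0.54 and -0.57. With 2 controls, their deviations mirror each other, so these values are not independent. They cannot show whether a shared number means a pairing. The block changed no call. Signal over background limits Dlk1, Peg3, Plagl1 and Mest.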
